A study of Mus musculus with 33 samples.

Results

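Spleen cells cultured for 4 h with CpG ODN were compared with spleen cells kept for 4 h in medium alone. The comparison holds 8 of the 33 arrays of the series, chosen by their labels, with 4 arrays per group. The cells came from female BALB/c mice aged 2 months and were cultured at 37 C. The CpG ODN cultures received an equimolar mixture of the oligodeoxynucleotides (ODN) 1555 and 1466 at 1 uM. A second set of 4 arrays at 4 h came from cultures with a control ODN without CpG motifs, an equimolar mixture of ODN 1612 and 1471 at 1 uM, and the medium cultures received no ODN. Groups of the same kind at 2 h (4 arrays each) and 8 h (3 arrays each) were used to follow the same genes over time. The medium cultures account for what cell handling and culture do to gene expression. Per the series' design text the repeats are independent experiments, and whether animals were pooled within one is not given in the sources used here.

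CpG ODN are short DNAs with unmethylated CpG motifs, of a kind that is common in bacterial DNA and rare in mammalian DNA. They are taken up into endosomes and bind Toll-like receptor 9 (Tlr9), which in mice is found in B cells, dendritic cells and macrophages. The receptor signals through the adaptor Myd88 to NF-kB and MAP kinases, which switch on inflammatory cytokine genes, and to interferon regulatory factors. Type I interferon released by responding cells then acts on neighbouring cells through its own receptor and switches on a second set of genes.

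Each value is a log2 ratio of spleen cell RNA (Cy5) over a common mouse reference RNA (Cy3), with each array centred on its own median. The log base was taken as 2 from the range of the values. A difference of 1 between groups is then a doubling. A value below 0 means a ratio below the median ratio of that array, which need not be less RNA than in the reference. Probes with a value numbered 10621 to 10973 on the CpG ODN arrays and 10556 to 11127 on the medium arrays. Correlations between arrays over all genes ran from 0.784 to 0.928 within CpG ODN, from 0.838 to 0.910 within medium and from 0.800 to 0.927 between the groups, so the groups did not separate over all genes. Repeat 2 had the widest ratios in both groups, with an interquartile range of 1.30 for CpG ODN and 1.39 for medium, against 0.963 to 1.11 for the other CpG ODN arrays and 0.981 to 1.13 for the other medium arrays. Repeat 1 of medium carries an earlier experiment number than the other 7 arrays.

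After 4 h, single genes of several functional lists were higher with CpG ODN than in medium, among them the cytokine genes Il12b, Tnf and Il6, the chemokine genes Ccl3 and Cxcl10, the NF-kB regulator Nfkbiz and the interferon response genes Ifit1 and Ifit3. Most members of each list did not pass the test. Of 9654 genes tested, 20 rose and 1 fell at a limma adjusted p below 0.05. That is 0.218% of the genes tested, 0.207% higher and 0.0104% lower. The 20 rises spanned 1.89-fold to 7.37-fold, and no array of one group overlapped the other in any of the 21 genes, 18 of which were measured on all 8 arrays. Among the 7406 genes measured on all 8 arrays, the CpG ODN arrays lay above all medium arrays for 113 (1.53%) and below them for 206 (2.78%). Unadjusted p was below 0.05 for 467 genes, slightly fewer than the share of 0.05 that chance alone gives. Of these, 186 were higher (1.93%) and 281 lower (2.91%), while the median difference of all genes was -0.04. That split depended on the scaling, with 246 higher and 188 lower under quantile normalization and 157 higher and 330 lower without centring. RNA came from whole cell suspensions, so more cells of a type and more RNA per cell cannot be told apart.

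The count of 21 depended on the arrays and the model fitted. It was 33 under a block for the repeat number and 56 with array weights. It was 5 with only the 8 arrays in the fit (Ccl3, Ifit1, Il12b, Nfkbiz and Tnf), 12 without the arrays of early experiment number, and 14 without both repeat 2 arrays. Those 5 genes were called under every alternative tried that could test them.

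**Figure D1:**
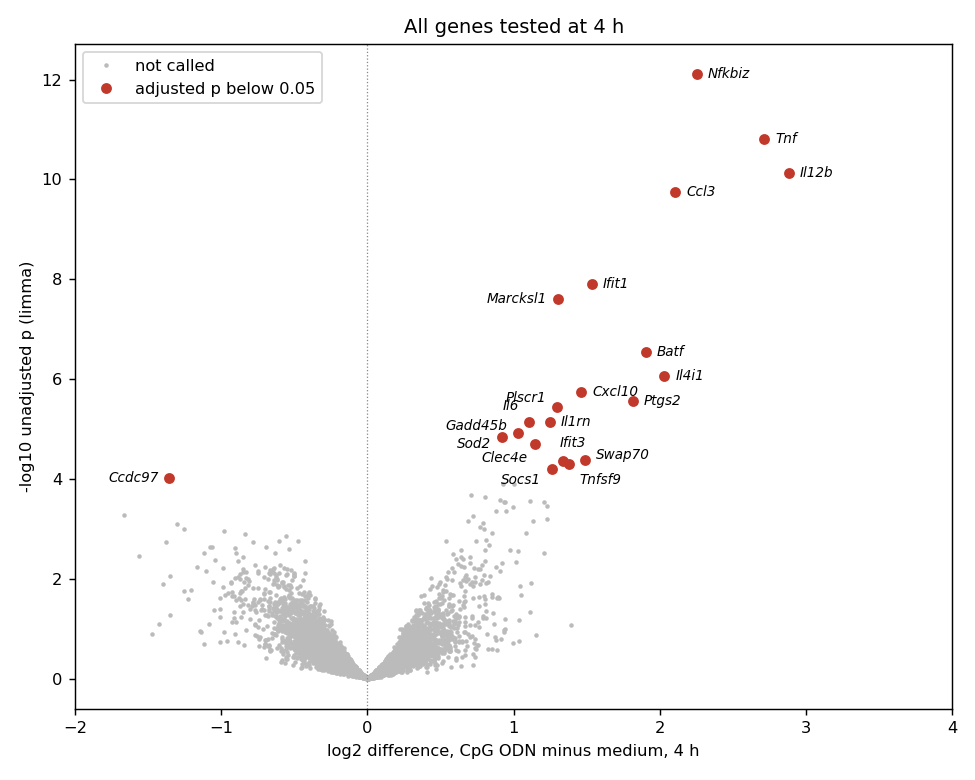
Log2 difference of CpG ODN minus medium at 4 h (x axis) against -log10 of the unadjusted limma p (y axis) for each of 9654 genes. Red points are the 21 genes with an adjusted p below 0.05, of which 20 lie to the right of 0 and Ccdc97 lies to the left.

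The largest rises of the comparison, of Il12b and Tnf, were those of cytokine genes. Of 32 cytokine genes tested 5 rose and 0 fell, against 0.207% and 0.0104% of all genes. The list median was 0.21, against -0.04 for all genes. Il12b encodes the p40 subunit shared by IL-12 and IL-23, which drive T helper responses. Its log2 ratios in repeats 1 to 4 were 3.02, 2.72, 3.06 and 3.34 with CpG ODN, against -0.23, 0.70, -0.30 and 0.44 in medium. The lowest CpG ODN array exceeded the highest medium array by more than the range within either group. The difference was 2.88 ± 0.28 (SE, n = 4 against 4, limma adjusted p = 2.44e-07), or 7.37-fold.

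Tnf, the inflammatory cytokine tumour necrosis factor, had ratios of 3.88, 3.79, 4.22 and 4.43 with CpG ODN, against 1.31, 1.66 and 1.13 in medium repeats 1 to 3. Medium repeat 4 had no value for Tnf, and the groups did not overlap. The difference was 2.71 ± 0.25 (SE, n = 4 against 3, limma adjusted p = 7.31e-08). Il6, which supports B cell differentiation and the acute phase response, stood at 2.10, 1.65, 2.42 and 2.25 with CpG ODN, against 0.96, 0.82, 1.06 and 1.16 in medium. This smaller rise was 1.11 ± 0.20 (limma adjusted p = 0.0054), with no overlap between the groups. Its call was lost with only the compared arrays in the fit and without the arrays of early experiment number.

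Il1rn encodes the antagonist that blocks the IL-1 receptor. It gave 3.83, 3.64 and 3.63 in CpG ODN repeats 1, 2 and 4, against 2.54, 2.47, 2.28 and 2.51 in medium. Repeat 3 of CpG ODN was not measured for it, and the difference was 1.25 ± 0.23 (limma adjusted p = 0.0054, and 0.0560 without CpG ODN repeat 1). Tnfsf9, the ligand of the costimulatory receptor 4-1BB, gave 0.11, -0.80, -0.07 and -0.21 with CpG ODN, against -1.66, -1.66, -1.80 and -1.34 in medium. CpG ODN repeat 2 was its lowest treated array and still lay above every medium array. The difference was 1.38 ± 0.29 (limma adjusted p = 0.025), and it lost its call without any one of 6 of the 8 arrays (highest adjusted p = 0.126).

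Other cytokines that TLR9 ligands are known to induce did not pass the test at 4 h. Il10, an anti-inflammatory cytokine, averaged -0.53 ± 0.13 with CpG ODN and -0.98 ± 0.58 in medium (SD, n = 4 each), with a difference of 0.45 ± 0.35 (SE, limma adjusted p = 0.999). The control ODN differed from the same medium arrays by 0.65 ± 0.35 (SE) for Il10, and was not called either. Ifng, the cytokine of NK and T cells that activates macrophages, averaged 2.13 ± 0.36 with CpG ODN and 2.23 ± 0.23 in medium (SD, n = 4 each), with overlapping arrays and a difference of -0.10 ± 0.28 (SE).

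**Figure D2:**
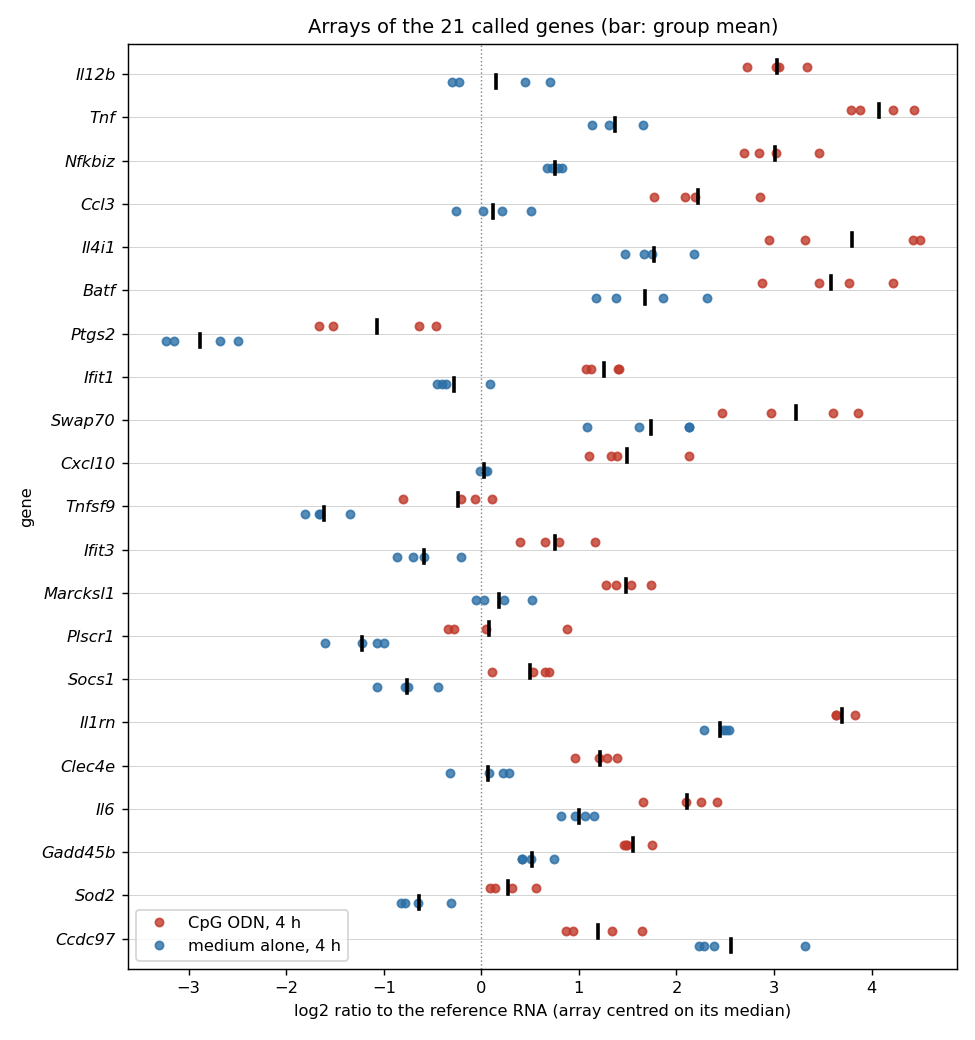
Log2 ratio to the reference RNA (x axis, arrays centred on their medians) of the 21 called genes (y axis), with 1 point per array, red for CpG ODN above blue for medium, and a black bar at each group mean. Red and blue points do not overlap in any row, from Il12b with the largest rise at the top to Ccdc97, the only gene lower with CpG ODN, at the bottom.

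Among 27 chemokine genes 2 rose and 0 fell, against 0.207% and 0.0104% of all genes. Their median was 0.01 and turned to -0.01 without centring. Ccl3 (MIP-1 alpha) draws monocytes, T cells and NK cells. Its ratios were 2.08, 1.77, 2.86 and 2.19 with CpG ODN, against 0.50, -0.26, 0.02 and 0.21 in medium. Every CpG ODN array stood well clear of the medium arrays, and the rise was 2.11 ± 0.22 (limma adjusted p = 4.22e-07), or 4.31-fold. Cxcl10, an interferon-inducible attractant of T cells, had 2.13, 1.39, 1.11 and 1.33 with CpG ODN, against 0.06, 0.04 and -0.01 in medium repeats 1, 2 and 4. The medium values lay close to the median of their arrays, and CpG ODN repeat 1 lay above the other CpG ODN arrays. The rise was 1.46 ± 0.24 (n = 4 against 3, limma adjusted p = 0.0019).

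Ccl4 (MIP-1 beta), a chemokine of the same family as Ccl3, was not among the rises. It read -0.70, -0.36, -0.37 and -0.10 with CpG ODN, against 0.69, -0.07 and -0.09 in medium repeats 2 to 4. The difference of -0.56 ± 0.20 was not called (limma adjusted p = 0.636), and the control ODN differed from the same medium arrays by -0.72. Further chemokines had an unadjusted p below 0.05 without a call, and they are named after their values were seen. Ccl22 differed by 1.21 ± 0.28 (n = 3 against 3, limma adjusted p = 0.094), Cxcl2 by 0.92 ± 0.30 (limma adjusted p = 0.548) and Cxcl11 by 0.69 ± 0.18 (limma adjusted p = 0.176).

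Among 13 tested genes of NF-kB subunits, inhibitors and feedback, 1 rose, Nfkbiz, against 0.207% of all genes. The list median was 0.22. Nfkbiz encodes IkB-zeta, a nuclear protein that NF-kB induces and that is needed for secondary genes such as Il6 and Il12b. It had 2.85, 2.69, 3.46 and 3.02 with CpG ODN, against 0.72, 0.67, 0.78 and 0.83 in medium. The medium arrays agreed to within a small fraction of the difference, which was 2.25 ± 0.19 (limma adjusted p = 7.51e-09), the smallest p of the comparison. Nfkbia, the cytoplasmic inhibitor of NF-kB that NF-kB itself induces, came closest to the threshold without passing it. Its ratios were 2.17, 1.97, 2.67 and 2.27 with CpG ODN, against 1.09, 1.14, 1.46 and 1.39 in medium, with no overlap. The difference was 1.00 ± 0.23 (limma adjusted p = 0.0539). Zc3h12a, whose protein degrades cytokine mRNAs, differed by 0.91 ± 0.22 (n = 4 against 3, limma adjusted p = 0.094) and the signalling adaptor Traf1 by 1.09 ± 0.30 (limma adjusted p = 0.254), both named after their values were seen.

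Of 28 genes of lymphocyte activation and costimulation 2 rose and 0 fell, against 0.207% and 0.0104% of all genes, with a median of 0.15. Batf, an AP-1 family transcription factor that acts in activated B and T cells, had 3.46, 2.88, 4.22 and 3.77 with CpG ODN, against 1.86, 1.17, 1.38 and 2.31 in medium. Both groups spread by more than 1 log2 unit, yet the lowest CpG ODN array exceeded the highest medium array. The difference was 1.90 ± 0.29 (limma adjusted p = 4.0e-04). Swap70, which remodels the cytoskeleton and is needed for normal B cell activation and migration, had 2.96, 2.46, 3.61 and 3.86 with CpG ODN, against 2.13, 1.08, 1.62 and 2.13 in medium. Its rise of 1.49 ± 0.31 (limma adjusted p = 0.0236) lost its call without any one of 4 of the 8 arrays (highest adjusted p = 0.190).

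The early activation antigen Cd69 had 2.66, 3.00, 4.52 and 3.56 with CpG ODN, against 1.99, 2.07, 2.18 and 2.69 in medium. One medium array reached into the CpG ODN range, and the difference of 1.20 ± 0.37 was not called (limma adjusted p = 0.429). Cd86, a costimulatory ligand of antigen-presenting cells, differed by 0.13 ± 0.34 (n = 4 against 3, limma adjusted p = 0.999). Ccr7, which guides lymphocytes and dendritic cells to lymph nodes, differed by 0.66 ± 0.30 (limma adjusted p = 0.990).

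The immediate early genes and MAP kinase feedback genes gave 2 rises among 33 tested, against 0.207% of all genes, with a median of 0.06. Ptgs2 encodes cyclooxygenase 2, the inducible enzyme of prostaglandin synthesis. It lay below the array median in every culture, at -0.64, -0.47, -1.52 and -1.67 with CpG ODN, against -3.23, -2.49, -2.68 and -3.15 in medium. Repeats 1 and 2 of CpG ODN stood about 1 log2 unit above repeats 3 and 4, and all were above the medium arrays. The rise was 1.82 ± 0.31 (limma adjusted p = 0.0026), or 3.52-fold. Gadd45b, a stress gene that NF-kB induces, had 1.49, 1.75, 1.49 and 1.47 with CpG ODN, against 0.42, 0.42, 0.75 and 0.50 in medium, a rise of 1.03 ± 0.19 (limma adjusted p = 0.0082).

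Several genes of the same list had an unadjusted p below 0.05 without a call. Gadd45g, a relative of Gadd45b, read 0.04, -0.01, -0.10 and -0.16 with CpG ODN, against -0.96, -0.98, -0.75 and -0.76 in medium, a difference of 0.81 ± 0.19 (limma adjusted p = 0.0883). Its groups did not overlap, and neither did those of Myc and Jun. Myc, the transcription factor of cell growth, differed by 1.00 ± 0.25 (limma adjusted p = 0.108), and Jun, an AP-1 subunit, by 0.79 ± 0.21 (limma adjusted p = 0.188).

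The interferon response list had many small differences in one direction. Of 44 genes tested, 2 rose at the adjusted threshold (Ifit1 and Ifit3) and 0 fell, against 0.207% and 0.0104% of all genes. An unadjusted p below 0.05 was found for 15, all higher, against 1.93% of all genes. Among the 37 members measured on all 8 arrays, 13 had every CpG ODN array above every medium array, against 1.53% of all genes. The list median was 0.31, against -0.04 for all genes, and lay between 0.29 and 0.43 under the other scalings. Ifit1 encodes a protein that binds viral RNA lacking a host cap. It had 1.40, 1.41, 1.13 and 1.07 with CpG ODN, against -0.36, 0.09, -0.41 and -0.45 in medium, a rise of 1.53 ± 0.20 (limma adjusted p = 2.37e-05). The antiviral gene Ifit3, which has a close copy in the mouse genome (Ifit3b) that a probe may not tell apart, had 0.80, 1.16, 0.39 and 0.65 with CpG ODN, against -0.86, -0.21, -0.70 and -0.58 in medium. Its rise of 1.34 ± 0.28 (limma adjusted p = 0.0236) lost its call without any one of 6 of the 8 arrays (highest adjusted p = 0.137).

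The 13 other interferon response genes with an unadjusted p below 0.05 had differences from 0.41 (Zbp1) to 1.23 (Cmpk2) and none was called. They are named after their values were seen. Trim30a, which dampens TLR signalling, averaged 1.90 ± 0.28 with CpG ODN and 0.97 ± 0.22 in medium (SD, n = 4 each), a difference of 0.93 ± 0.23 (SE, limma adjusted p = 0.094). The guanylate-binding protein gene Gbp2 differed by 0.80 ± 0.22 (limma adjusted p = 0.222) and Isg15, a ubiquitin-like modifier, by 0.81 ± 0.26 (limma adjusted p = 0.523). The immunity-related GTPases Irgm1, Ifi47, Igtp and Tgtp1 differed by 0.70 ± 0.22, 0.74 ± 0.22, 0.62 ± 0.20 and 1.01 ± 0.33 on the log2 scale, each with no overlap between the groups.

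The upstream sequence of called genes was searched for motifs of the factors named above, over the 250 bases before the RefSeq start (GRCm38.p6), which were found for 19 of the 21 called genes. Nfkbiz and Tnfsf9 had no entry. The interferon-stimulated response element was searched as TTTCNNTTTC on both strands, the AP-1 element as TGANTCA on both strands, and the NF-kB element by its consensus, likewise. The interferon element was in the window of Cxcl10, Ifit1, Ifit3 and Socs1, 4 of 19 genes, against 3.46% of 27025 genes. The NF-kB consensus was in Cxcl10, Il6 and Sod2, 3 of 19, against 8.23% of all genes, and the AP-1 element in Cxcl10, Ifit3, Il1rn and Il6, 4 of 19, against 7.82%. In 1 case, Cxcl10, all of these motifs lay in the same window. The windows of the 4 genes with an interferon element and of Il6, with an NF-kB consensus, are shown as those that hold a match among the 6 genes whose differences grew between 4 h and 8 h. The window of the sixth, Gadd45b, held none of the motifs. Sequences run 5′ to 3′ on the gene's strand and end at the base before the start, and capitals mark the interferon element and the NF-kB consensus. A match is a stretch of letters and was not tested as a binding site.
Ifit1 (chr19:34640639-34640888, + strand): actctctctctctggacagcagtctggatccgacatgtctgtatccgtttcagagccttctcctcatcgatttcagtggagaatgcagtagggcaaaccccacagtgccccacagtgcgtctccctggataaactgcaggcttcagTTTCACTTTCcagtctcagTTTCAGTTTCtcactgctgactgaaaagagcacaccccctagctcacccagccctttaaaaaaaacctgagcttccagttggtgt
Ifit3 (chr19:34583279-34583528, + strand): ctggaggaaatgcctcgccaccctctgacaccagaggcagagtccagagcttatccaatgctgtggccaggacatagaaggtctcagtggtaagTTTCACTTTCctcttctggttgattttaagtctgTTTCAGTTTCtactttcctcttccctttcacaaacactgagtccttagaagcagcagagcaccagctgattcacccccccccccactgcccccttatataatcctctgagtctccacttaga
Cxcl10 (chr5:92348890-92349139, - strand): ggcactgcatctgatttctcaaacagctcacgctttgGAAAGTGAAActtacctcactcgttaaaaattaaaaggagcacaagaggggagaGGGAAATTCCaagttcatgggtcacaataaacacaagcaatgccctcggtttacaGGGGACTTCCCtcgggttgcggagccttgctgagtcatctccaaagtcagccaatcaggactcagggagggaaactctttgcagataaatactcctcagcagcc
Socs1 (chr16:10785537-10785786, - strand): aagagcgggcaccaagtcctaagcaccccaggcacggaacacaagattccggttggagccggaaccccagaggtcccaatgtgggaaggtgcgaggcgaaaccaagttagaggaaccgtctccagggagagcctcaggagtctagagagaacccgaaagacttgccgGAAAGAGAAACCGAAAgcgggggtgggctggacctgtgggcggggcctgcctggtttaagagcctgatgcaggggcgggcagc
Il6 (chr5:30012864-30013113, + strand): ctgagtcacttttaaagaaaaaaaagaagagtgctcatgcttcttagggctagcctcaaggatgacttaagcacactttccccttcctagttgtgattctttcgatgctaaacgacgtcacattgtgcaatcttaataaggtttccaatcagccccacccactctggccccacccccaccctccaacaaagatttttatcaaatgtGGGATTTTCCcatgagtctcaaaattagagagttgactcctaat

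Ifit1 and Ifit3 each held 2 copies of the interferon element, starting 104 and 85 bases before the start in Ifit1 and 156 and 122 bases before it in Ifit3. In Socs1 the 2 copies overlapped, at 83 and 77 bases, and Cxcl10 held 1 copy at 213 bases. These copies of Socs1 and Cxcl10 lay on the opposite strand. The NF-kB consensus of Cxcl10 lay at 159 bases and, as 2 overlapping matches, at 104 and 103 bases, and that of Il6 at 44 bases.

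Of 32 suppressors and mediators of cytokine signalling 1 rose, Socs1, against 0.207% of all genes, with a list median of 0.07. Socs1 inhibits JAK kinases below interferon and cytokine receptors. It read 0.11, 0.53, 0.70 and 0.65 with CpG ODN, against -1.07, -0.75, -0.78 and -0.45 in medium. Its ratio thus lay above the array median in the CpG ODN cultures and below it in medium. The rise was 1.26 ± 0.27 (limma adjusted p = 0.0309), and the call was lost without any one of 6 of the 8 arrays (highest adjusted p = 0.188). Socs3, its relative below IL-6 family receptors, differed by 0.03 ± 0.20 (limma adjusted p = 0.999).

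The effector list of prostaglandin, nitric oxide and antimicrobial genes gave 3 rises among 18 tested, Ptgs2, Clec4e and Sod2, against 0.207% of all genes. Its median was 0.07. Clec4e encodes Mincle, a C-type lectin receptor of macrophages for mycobacterial and fungal glycolipids. It had 1.39, 1.29, 0.96 and 1.21 with CpG ODN, against 0.23, 0.28, 0.08 and -0.33 in medium, a rise of 1.15 ± 0.22 (limma adjusted p = 0.0119). The mitochondrial superoxide dismutase gene Sod2 had 0.32, 0.09, 0.56 and 0.14 with CpG ODN, against -0.78, -0.83, -0.65 and -0.31 in medium. This was the smallest rise called, 0.92 ± 0.18 (limma adjusted p = 0.0094), or 1.89-fold. Clec4e lost its call without CpG ODN repeat 1 or medium repeat 4 (highest adjusted p = 0.0855), and Sod2 without CpG ODN repeat 3, medium repeat 1 or medium repeat 2 (highest adjusted p = 0.0775).

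Outside the lists, 3 further genes rose. Il4i1, a secreted oxidase of phenylalanine and other amino acids that B cells and dendritic cells make, had 2.95, 3.32, 4.43 and 4.49 with CpG ODN, against 2.18, 1.75, 1.67 and 1.47 in medium. Repeats 3 and 4 of CpG ODN stood above repeats 1 and 2, and the rise was 2.03 ± 0.33 (limma adjusted p = 0.0010), or 4.09-fold. Marcksl1, an actin-binding substrate of protein kinase C, had 1.53, 1.38, 1.74 and 1.28 with CpG ODN, against 0.23, -0.06, 0.52 and 0.03 in medium, a rise of 1.30 ± 0.17 (limma adjusted p = 3.91e-05). Plscr1, a phospholipid scramblase that interferon induces, had -0.28, -0.34, 0.88 and 0.05 with CpG ODN, against -1.22, -1.60, -1.07 and -1.002 in medium. Despite the wide CpG ODN range the groups did not overlap, and the rise was 1.30 ± 0.23 (limma adjusted p = 0.0032).

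The single fall, Ccdc97, a coiled-coil protein of little-known function, rested on 1 probe. Its ratios were 0.94, 1.34, 1.65 and 0.87 with CpG ODN, against 3.32, 2.23, 2.39 and 2.28 in medium, a difference of -1.36 ± 0.30 (limma adjusted p = 0.0433). Medium repeat 1 stood apart from the other medium arrays. The call was lost without any one of 7 of the 8 arrays, CpG ODN repeat 3 being the exception (highest adjusted p = 0.290, without medium repeat 1). A second probe of the gene gave -0.38 ± 0.28 (unadjusted p = 0.18), and the control ODN differed from medium by -0.72 on the first probe. The call held in 5 of 18 alternatives.

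Among genes not called, the 5 rises measured on all 8 arrays with the smallest p were those of Nfkbia, Adm, Itgb3, Gadd45g and Pim2. Adm, a vasodilator peptide, had -0.61, -0.81, -0.12 and -0.57 with CpG ODN, against -1.76, -1.66, -1.54 and -0.85 in medium, a difference of 0.93 ± 0.21 (limma adjusted p = 0.0539). Pim2, a survival kinase of lymphocytes, differed by 0.94 ± 0.23 (limma adjusted p = 0.094) and the integrin subunit Itgb3 by 0.71 ± 0.17 (limma adjusted p = 0.083). The control ODN differed from the same medium arrays by 0.43 for Itgb3, -0.25 for Pim2 and -0.02 for Adm. The 5 falls chosen in the same way were those of Acss2, Hnrnpa0, 1700001F09Rik, Gstm7 and Lpar6. Acss2, which makes acetyl-CoA from acetate, differed by -1.30 ± 0.35 (limma adjusted p = 0.190), and the RNA-binding protein gene Hnrnpa0 by -1.25 ± 0.34 (limma adjusted p = 0.222), while the control ODN differed from the same medium arrays by -0.71 for Acss2 and -0.91 for Hnrnpa0.

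Among the genes with every CpG ODN array below every medium array, medium repeat 1 was the highest medium array for 110 of 206, against 50, 33 and 13 for repeats 2, 3 and 4. Where every CpG ODN array lay above, medium repeat 1 was the lowest medium array for 36 of 113, against 37, 26 and 14 for repeats 2, 3 and 4. Without medium repeat 1, unadjusted p was below 0.05 for 167 genes higher and 184 lower, against 186 and 281 with it. Leaving out another array in turn gave 146 to 256 higher and 208 (without CpG ODN repeat 1) to 325 lower, and quantile normalization of all arrays gave 188 lower. The part of medium repeat 1 in the other falls named here was not tested.

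Genes of growth and of the receptor pathway gave no calls. Ribosome biogenesis and MYC-driven growth were covered by 38 genes, of which 33 had a positive difference, against 4114 of all 9654 genes, with a median of 0.25, and none was called. An unadjusted p below 0.05 was found for 4, all of them higher, against 1.93% of all genes. Rrp1b, a nucleolar protein of ribosome assembly, differed by 0.66 ± 0.22 (limma adjusted p = 0.598). Tlr9 itself read 1.27, 2.35, 1.40 and 1.19 with CpG ODN, against 0.82, 2.16, 1.81 and 1.14 in medium, with overlapping groups and a difference of 0.07 ± 0.36. Among 15 genes of its pathway 0 were called, 2 had an unadjusted p below 0.05 higher and 1 lower, against 1.93% and 2.91% of all genes. Tlr7, the endosomal receptor for single-stranded RNA, differed by 0.77 ± 0.21 (limma adjusted p = 0.208) and Tlr4, the receptor for lipopolysaccharide, by -0.75 ± 0.26 (limma adjusted p = 0.628).

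Apoptosis and survival (29 genes tested), cell cycle and DNA replication (41), MHC class II and antigen presentation (22) and heat shock and the unfolded protein response (18) held no gene called by limma. Their medians were 0.02, -0.07, 0.03 and -0.04, and 2, 2, 0 and 0 of their genes had an unadjusted p below 0.05. Both of the apoptosis list were higher, and the cell cycle list had 1 higher and 1 lower, against 1.93% higher and 2.91% lower among all genes. The apoptosis median turned to -0.01 without centring. The D-type cyclin Ccnd2 differed by 0.88 ± 0.22 with no overlap (limma adjusted p = 0.126), and Cflar, an inhibitor of caspase 8, by 0.58 ± 0.18 (limma adjusted p = 0.439). Ciita, the master regulator of MHC class II genes, differed by -0.48 ± 0.26 (limma adjusted p = 0.999), and Ephx1, a microsomal epoxide hydrolase, by -0.77 ± 0.26 (limma adjusted p = 0.584).

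**Figure D3:**
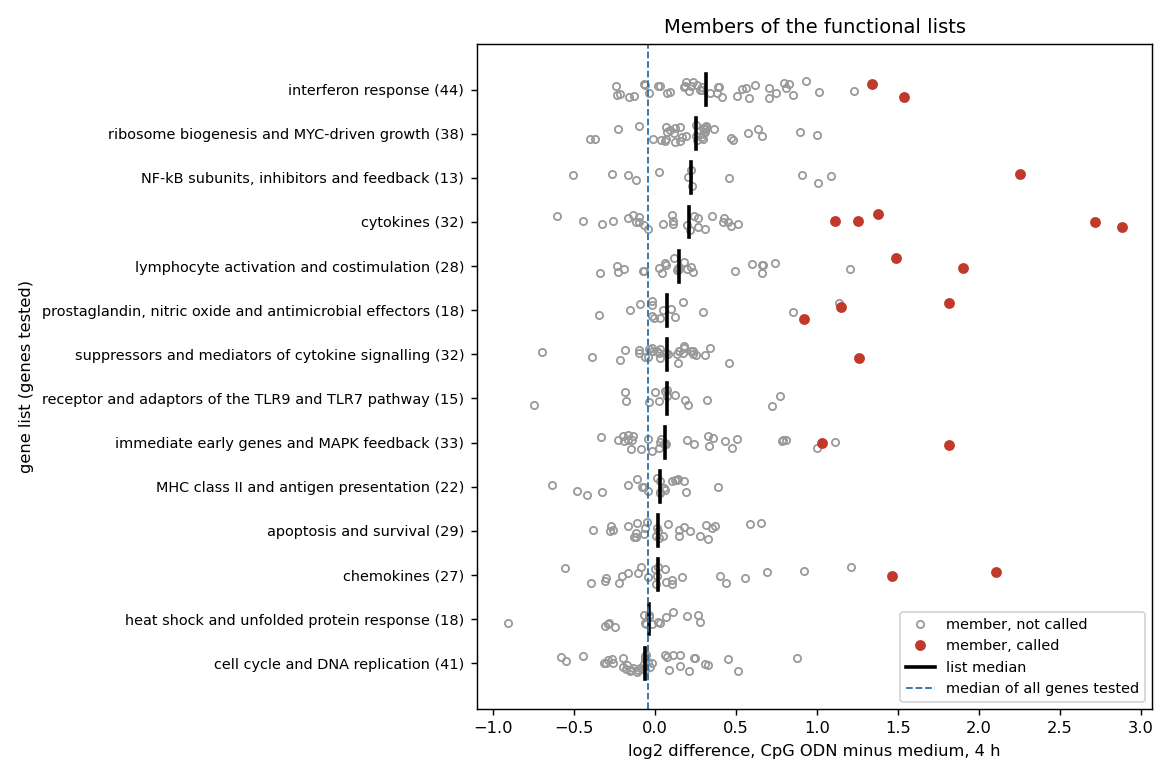
Log2 difference of CpG ODN minus medium at 4 h (x axis) for the tested members of 14 gene lists (y axis, number tested in brackets), with called members filled in red, the other members as open circles and a black bar at each list's median. The dashed line is the median of all genes, -0.04, and the interferon response list has the highest median, 0.31.

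The marker genes of spleen cell types had no member called. The summed level is given as the mean log2 ratio of the members measured on all 8 arrays. For 14 of 20 B cell markers it lay between 2.22 and 2.95 on the CpG ODN arrays and between 2.42 and 2.81 on the medium arrays. For 13 of 21 T cell markers it lay between 1.22 and 1.95 with CpG ODN and between 1.47 and 1.89 in medium. Both lists were thus above the array median in every culture, with overlapping groups. For comparison, 13 of 30 markers of other tissues in the reference RNA averaged -0.87 with CpG ODN and -0.85 in medium.

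Ranges also overlapped for 12 of 22 monocyte and macrophage markers (0.445 to 0.678 with CpG ODN, 0.495 to 0.840 in medium) and for 7 of 15 NK cell markers (0.820 to 1.46 with CpG ODN, 1.23 to 1.38 in medium). The same held for 9 of 17 neutrophil markers (1.71 to 3.40 with CpG ODN, 1.81 to 3.55 in medium) and 8 of 15 erythroid markers (1.72 to 2.35 with CpG ODN, 1.86 to 2.65 in medium). For 6 of 15 dendritic cell markers, Ccr7 among them, the mean was 1.48 ± 0.08 with CpG ODN and 1.23 ± 0.13 in medium (SD, n = 4 each), with ranges of 1.37 to 1.56 and 1.06 to 1.38 that only just overlapped. Flt3, another of these 6, read -2.33 in medium repeat 2, against -0.59, -0.60 and -0.27 in medium repeats 1, 3 and 4. The list's mean was not taken without Flt3. The part of this list's level in the rises was not tested. Over the 9 marker lists, 5 genes were higher and 5 lower at an unadjusted p below 0.05, against 1.93% and 2.91% of all genes. Higher and lower, these were 2 and 2 of 15 T cell genes tested, 1 and 1 of 17 B cell genes and 0 and 1 of 9 NK cell genes. The rest were 1 and 0 of 9 dendritic cell genes, 0 and 1 of 11 erythroid genes and 1 and 0 of 8 platelet genes. The T cell kinase gene Zap70 differed by -0.99 ± 0.33 (limma adjusted p = 0.598) and the B cell receptor subunit Cd79b by -0.59 ± 0.25 (limma adjusted p = 0.918). The control ODN differences were -0.39, from 2 control ODN arrays, and -0.44. Zap70 read -1.21, -1.91, 0.21 and 0.06 with CpG ODN, against 0.10, -0.05, 0.10 and 0.97 in medium. Other members of both lists lay higher without a call. These were the T cell genes Cd6 by 0.90 (n = 3 against 3) and Cd8a by 0.46 and the B cell gene Ly6d by 0.56.

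Set against the same medium arrays, the control ODN gave 0 called genes of 9637 by limma (0%). Unadjusted p fell below 0.05 for 176 genes, fewer than the share of 0.05 that chance alone gives. When only the compared arrays were fitted, 1 gene, Tra2b, was called lower. The 2 comparisons share the medium arrays, so the values are set side by side. For the 20 genes that rose with CpG ODN, the control ODN differed from medium by -0.26 to 0.16, with a lowest unadjusted p of 0.315. The control ODN difference was 0.03 for Il12b, -0.25 for Tnf, -0.02 for Nfkbiz, -0.23 for Ccl3 and -0.17 for Ifit1, beside CpG ODN differences of 2.88, 2.71, 2.25, 2.11 and 1.53.

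Over time the called genes followed different courses. At 2 h, 4 of the 20 risers were called for CpG ODN against medium, Tnf, Ptgs2, Nfkbiz and Ccl3, where 0.042% of all genes were called. Tnf differed from medium by 2.49 at 2 h, 2.71 at 4 h and 2.42 at 8 h, and Ptgs2 by 2.31, 1.82 and 1.72. Nfkbiz differed by 1.94, 2.25 and 1.98, and Ccl3 by 1.58, 2.11 and 2.00. All 4 were called at each of these times. The other 16 were not called at 2 h, although 18 of the 20 risers had a positive difference. Il12b already differed by 1.35 at 2 h (limma adjusted p = 0.158), Clec4e by 1.16, Il4i1 by 0.93 and Tnfsf9 by 0.81, while Il6 stood at 0.11, Batf at -0.07 and Socs1 at -0.10. A test of the change between 2 h and 4 h called 0 of 9517 genes by limma (0%). Unadjusted p was under 0.05 for 388 genes, fewer than the share of 0.05 that chance alone gives. With array weights Batf, Ifit1 and Il12b were called for this change, and under a block for the repeat number Batf and Cdh16.

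By 8 h, 15 of the 20 risers were called, beside 11.8% of all genes (5.66% higher). A change of the difference between 4 h and 8 h was called for 226 of 9460 genes (2.39%), 171 larger at 8 h and 55 smaller. That count was 145 without CpG ODN repeat 2 of 8 h, 398 without medium repeat 1 of 8 h, 119 with only the compared arrays, 365 under a block for the repeat number and 346 with array weights. For 6 of the 20 risers the difference was larger at 8 h. Cxcl10 gained 3.22 ± 0.38 (SE, limma adjusted p = 3.35e-06), Ifit3 3.17 ± 0.43, Ifit1 2.53 ± 0.30, Il6 2.50 ± 0.31, Socs1 2.25 ± 0.41 and Gadd45b 1.19 ± 0.30 (highest adjusted p = 0.0230). Il6 thus stood at 0.11, 1.11 and 3.61 above medium at 2 h, 4 h and 8 h, and Cxcl10 at 0.38, 1.46 and 4.68.

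Clec4e was the 1 riser with a smaller difference at 8 h, by -1.23 ± 0.34 (limma adjusted p = 0.0494), with differences of 1.16 at 2 h, 1.15 at 4 h and -0.09 at 8 h. The other 13 were not called for a change. Il4i1, Tnfsf9, Marcksl1 and Sod2, like Clec4e, were not called at 8 h, with differences there of 0.50, 1.01, 0.58 and 0.53. Their changes between 4 h and 8 h were -1.53 for Il4i1 (limma adjusted p = 0.114), -0.37 for Tnfsf9, -0.72 for Marcksl1 and -0.39 for Sod2, and none passed the test. Il4i1 averaged 3.80 at 4 h and 3.54 at 8 h with CpG ODN, against 1.77 and 3.04 in medium. Clec4e averaged 1.21 and -0.40 with CpG ODN, against 0.06 and -0.32 in medium.

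**Figure D4:**
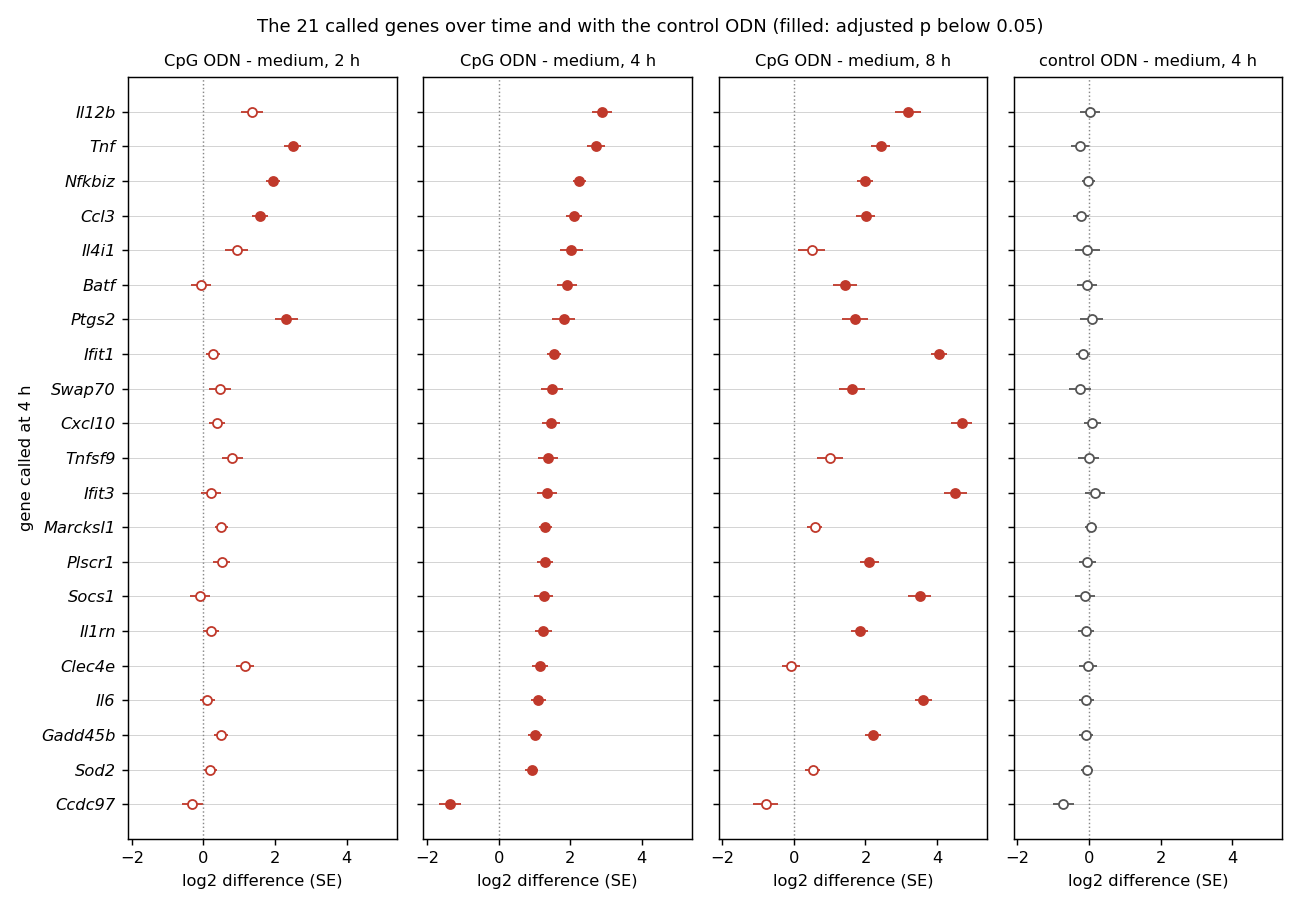
Log2 difference from medium with its SE (x axis) of the 21 called genes (y axis) for CpG ODN at 2 h, 4 h and 8 h and, at the right, for the control ODN at 4 h, with filled points for an adjusted p below 0.05. Ifit1, Cxcl10, Ifit3, Socs1 and Il6 reach 3.51 or more at 8 h, Clec4e returns to -0.09, and the control ODN points of the 20 risers lie between -0.26 and 0.16.

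The interferon response list stood at a median difference of -0.13 at 2 h, 0.31 at 4 h and 2.17 at 8 h. At 2 h 0 of its genes were called, and at 8 h 31 of 43 were called higher and 0 lower, beside 5.66% and 6.11% of all genes. For 27 of 43 members the difference grew between 4 h and 8 h by the test, beside 1.81% of all genes, with a median change of 1.67 against -0.08 for all genes. Cmpk2, a mitochondrial nucleotide kinase, differed from medium by 1.23 at 4 h and 3.59 at 8 h, and Zbp1, a sensor of viral nucleic acid, by 0.41 and 3.44. The median of the ribosome biogenesis list was -0.03 at 2 h, 0.25 at 4 h and 0.88 at 8 h, and that of the NF-kB list 0.15, 0.22 and 0.13.

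**Figure D5:**
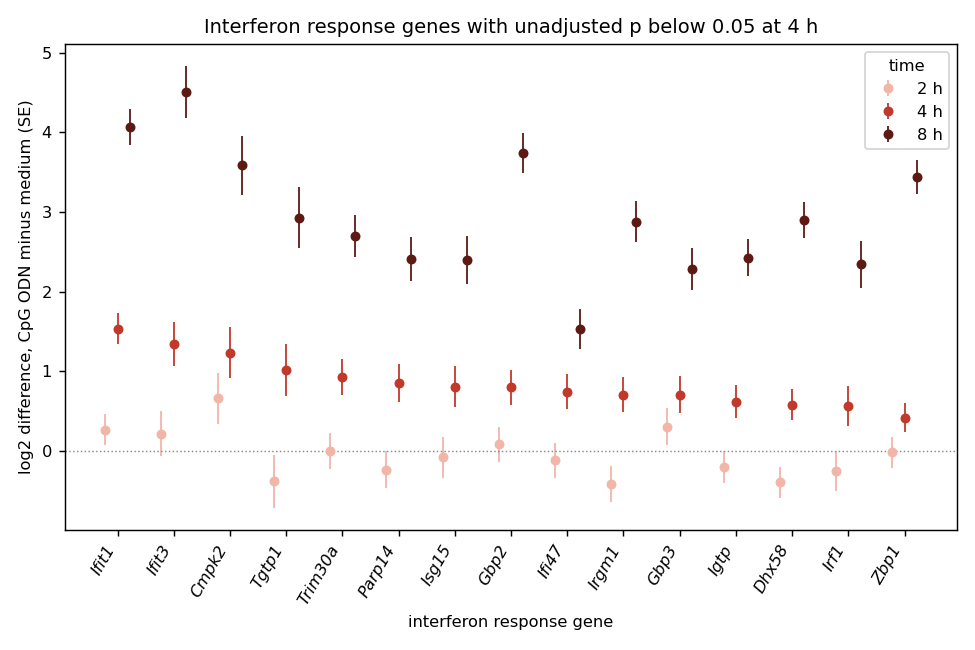
Log2 difference of CpG ODN minus medium with its SE (y axis) at 2 h, 4 h and 8 h for the 15 interferon response genes with an unadjusted p below 0.05 at 4 h (x axis, in order of the 4 h difference). Every gene shown was chosen for its 4 h value, which lies between 0.41 and 1.53, and the 8 h values lie between 1.53 and 4.51.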

How the data were processed

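Cy5-labelled cDNA of spleen cells was hybridised together with Cy3-labelled Universal Mouse Reference RNA, and no dye was swapped. The deposited table holds log2 ratios per probe, with their direction per the labels and their base inferred from the values. How the authors corrected background, filtered spots and normalized is not given in the sources used here. Probes were named through the platform annotation and RefSeq. Where a gene had several measured probes (511 genes), the probe with most values was used.

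After median centring of each array, a group-means model over all 33 arrays was fitted (limma 3.58.1, R 4.3.3) with empirical Bayes variances and Benjamini-Hochberg adjustment over all genes, and was checked on simulated data. Genes needed 2 measured arrays in each compared group. The threshold was an adjusted p of 0.05. Same-numbered CpG ODN and medium arrays deviated from their group means with correlations of -0.19, 0.64, -0.07 and 0.41 in repeats 1 to 4. Arrays of different numbers gave -0.51 to 0.33, a range that repeats 2 and 4 exceeded and repeats 1 and 3 did not. Whether same-numbered arrays share an origin was not tested. The main model took no pairs, and a block for the repeat number was an alternative, which called 33 genes. The text names all called genes, the nearest misses, the leading members of each list and a fixed set of TLR9 response genes. The members and lists were chosen with earlier results of these data known. The number of arrays limits the precision.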

Additional observations from a re-analysis of the deposited data

Results flagged for a closer look

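In 10 of 130 groups of 4 arrays tested by Dixon's criterion, which flags about 1 group in 20 by chance (a share of 0.05), 1 array stood apart from the other 3. With CpG ODN these were repeat 2 for Gadd45b (1.75, others up to 1.49) and repeat 3 for Hnrnpa0 (1.82, others up to 0.93) and Cd79b (3.44, others up to 2.54). In medium, repeat 1 stood apart for Ccdc97 (3.32, others up to 2.39), Tlr4 (-0.70, others up to -1.21) and Klra1 (2.13, others up to 1.63). Medium repeat 2 stood apart for Ifit1 (0.092, others up to -0.36), Flt3 (-2.33, others down to -0.60) and Gp1bb (-1.74, others down to -0.32), and medium repeat 4 for Zap70 (0.97, others up to 0.10).

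The difference between CpG ODN and medium changed between 4 h and 8 h for 13 of the 70 named genes by the limma test of the change itself. Of these, 11 became larger and 2 smaller, beside 1.81% and 0.581% of all genes. The named genes were chosen in part for their 4 h values and with earlier results of these data known. The gains were 3.22 for Cxcl10, 3.17 for Ifit3, 2.53 for Ifit1, 2.50 for Il6, 2.25 for Socs1, 2.01 for Il15ra, 1.65 for Jun, 1.59 for Tlr7, 1.58 for Ccnd2, 1.19 for Gadd45b and 1.06 for Gadd45g on the log2 scale. Il15ra encodes the receptor chain that presents IL-15. Clec4e changed by -1.23 and Ephx1 by -1.79. The adjusted p was closest to the threshold for Clec4e (0.0494) and Gadd45g (0.0484).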

How the results depend on the processing

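The count of 21 genes for CpG ODN against medium at 4 h stayed within 1.5 times under quantile normalization, no centring, genes measured on every compared array, every probe on its own, a robust prior and scaling to a common spread (17 to 25), and ranged from 16 to 24 without 1 array in turn. It was 5 with only the compared groups, 33 with the replicate block (repeat number within each time), 56 with array weights, 12 without the early arrays and 14 without both repeat 2 arrays. The block kept 20 of the 21 genes. The last setting and the common-spread scaling were chosen after seeing the data. For the change between 4 h and 8 h (226 genes) the count was 119 with only the compared groups, 365 with the block, 346 with array weights and 149 with common-spread scaling, and 145 to 398 without 1 array. For the change between 2 h and 4 h it was 2 with the block and 3 with array weights, and 0 without any 1 array. Control ODN against medium gave 1 gene with only the compared groups and 0 otherwise. The causes were not tested.

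Of 1247 values of named genes under the alternatives, 1131 kept their direction and their side of the threshold, 74 lost a call, 29 gained one and 13 turned sign. All sign turns were in 4 genes that were not called under any setting. Tlr9 was -0.092 with array weights, -0.15 when the early arrays were left out, and -0.19 to 0.30 without 1 array. Socs3 was -0.053 with array weights and -0.086 to 0.11 without 1 array. Ifng was 0.041 with quantile normalization and -0.27 to 0.010 without 1 array, and Cd86 -0.17 to 0.45 without 1 array. Nfkbia was called in 4 and Adm in 7 of the alternatives. The arrays give no signal over background, so dim probes could not be set apart.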

Other observations

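Further genes of the lists had groups that did not overlap without passing the test at 4 h, and they are given as values chosen after they were seen. Acod1, which makes the macrophage metabolite itaconate, averaged 1.79 ± 0.19 with CpG ODN and 0.66 ± 0.25 in medium (SD, n = 4 each), a difference of 1.13 ± 0.30 (SE, limma adjusted p = 0.176). Map3k8, a kinase that links TLR signals to ERK, differed by 1.11 ± 0.26 (n = 4 against 3, limma adjusted p = 0.094), and the survival kinase Pim1 by 0.78 ± 0.29 (limma adjusted p = 0.670).

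Irf4, a transcription factor of plasma cell differentiation, differed by 0.74 ± 0.26 (limma adjusted p = 0.656) and the costimulatory receptor Cd40 by 0.66 ± 0.29 (limma adjusted p = 0.942), both with overlapping groups. Other genes of the lymphocyte activation list lay lower or near 0, among them Prdm1 at -0.20 and Xbp1 at -0.07. Cxcl2, a neutrophil attractant, differed by 0.92 at 4 h and by -0.97 at 8 h, with neither called.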
